A study of Mus musculus with 2 samples.

Results

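Fibrinogen is the soluble plasma protein that thrombin turns into fibrin, the mesh of a blood clot. It is assembled from Aα, Bβ and γ chains, each made from a gene of its own, Fga, Fgb and Fgg, which lie side by side on mouse chromosome 3. Hepatocytes are the main source, and transcription there depends on liver-enriched factors such as those of the C/EBP family and is raised in the acute phase response by interleukin-6 acting through STAT3. Injured kidney tubules are also known to express the chains, and fragments of fibrin bind endothelial and leukocyte receptors.

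The 3 chain genes were taken as all probe sets to which the platform annotation gives the single symbol Fga, Fgb or Fgg. Each gene had 1 such probe set, so the description rests on 3 of 45101 probe sets and 3 of 18194 named genes. The chains were chosen by their lower intensity in the EST KO pool than in the WT pool, seen earlier in these same arrays, so those values are a description and carry no test.

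The arrays read kidney RNA of male C57BL/6 mice, 8 weeks old, after 30 min of warm bilateral renal ischemia and 24 h of reperfusion, a model of acute kidney injury (AKI). The WT AKI group was 1 pool of 180 mg of tissue from 3 wild-type mice. The EST KO AKI group was 1 pool of 124 mg from 6 mice lacking estrogen sulfotransferase (EST), the product of Sult1e1, which attaches sulfate to estrogens; the allele that removes it is not given in the labels. Each pool was read on 1 array, so the spread between mice is unknown, no test between genotypes can be made, and precision is limited by having 2 arrays. Both groups had been injured, so no value compares injured with uninjured kidney. The treatment protocol names liver as the tissue of the EST KO pool, whereas every other label names kidney.

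All values are the authors' deposited intensities on a linear scale, given as WT then EST KO. Background was 676.1 on the WT array and 638.3 on the EST KO array, the 95th percentile of 129 probe sets for keratin-associated proteins and for olfactory, taste and vomeronasal receptors, families with little expression in kidney. A gene above background in at least 1 pool was called measured, which held for 7480 genes. Sult1e1 itself read 472.7 and 17.2, below background in both pools, so its readings do not check the genotype label. Ratios are EST KO over WT, and a reading below background was set to the background before a ratio was taken, so such a fold is a lower bound and is written as "at least".

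All 3 chain genes lay above background in the WT pool and were lower in the EST KO pool. Fga, which encodes the Aα chain, read 9668 and 1515 at probe set 1424279_at. It was above background in both pools, by 14.3-fold and 2.37-fold, and its level was 6.38-fold lower in the EST KO pool, a log2 ratio of −2.67. Fgg, which encodes the γ chain, read 4708 and 169.6 at probe set 1416025_at. The first reading was 6.96-fold above background and the second lay below it, so the level was at least 7.38-fold lower, a log2 ratio of −2.88 or below. Fgb, which encodes the Bβ chain, read 1284 and 7.5 at probe set 1428079_at. Its WT reading was only 1.90-fold above background, and the EST KO reading lay below it, so the level was at least 2.01-fold lower, a log2 ratio of −1.01 or below. That bound is also the largest fold the WT reading of Fgb could give against the EST KO background. In whole kidney tissue, fewer cells that express the chains and less RNA per cell cannot be told apart.

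**Figure D1:**
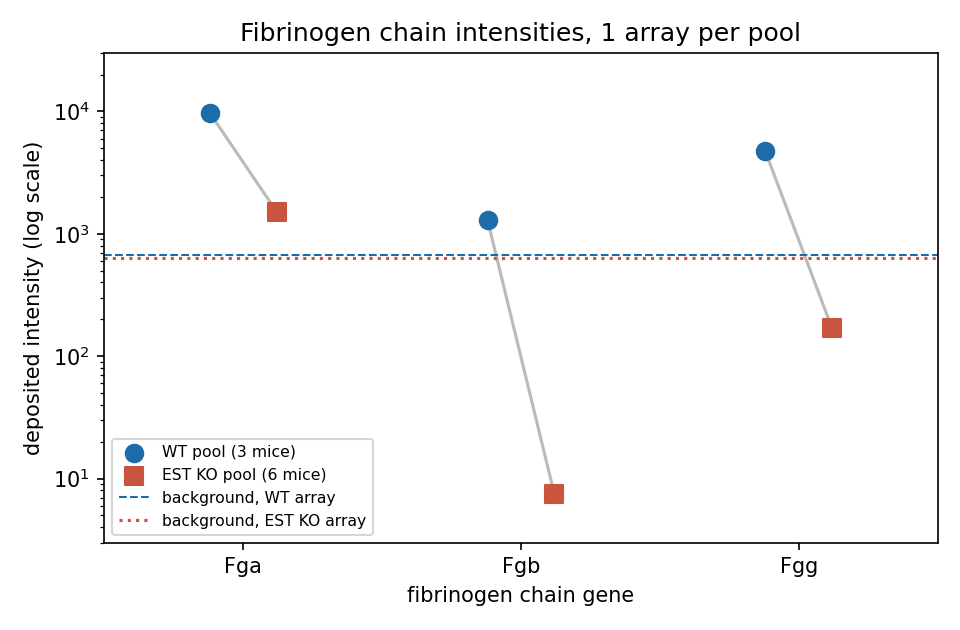
Deposited intensity (log axis) of each fibrinogen chain gene in the WT pool of 3 mice (circles) and the EST KO pool of 6 mice (squares), with the background of each array as a dashed and a dotted line. All 3 WT readings lie above background, and of the EST KO readings only that of Fga, 1515, does.

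The readings were set against the 129 probe sets of the silent families on the same array. In the WT pool none of those probe sets read higher than Fga or Fgg, and 1 read higher than Fgb. In the EST KO pool 1 read higher than Fga, 66 read higher than Fgg and 125 read higher than Fgb. Fgg and Fgb were thus within the range of silent genes in the EST KO pool, and Fga was near the top of it.

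All 3 chains passed 2-fold in the same direction, Fgb no longer so under median scaling (each array divided by its own median) or quantile normalization of the arrays. Across the 7480 measured genes, 105 passed 2-fold downwards, which is 1.40%, and 226 passed it upwards, which is 3.02%. At any size, 4084 were lower and 3262 higher, so 55.6% of the genes whose direction could be told were lower. The median log2 ratio was −0.05 over all measured genes and −2.67 over the chains. Because the chains were chosen for this contrast, nothing is read from their share. In order from the lowest ratio, Fgg was number 2, Fga number 3 and Fgb number 102 of 7480; the bounds of Fgg and Fgb do not fix their true place. Among the 6115 genes above background in both pools, Fga had the lowest ratio, and the next gene lay at −2.00.

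**Figure D2:**
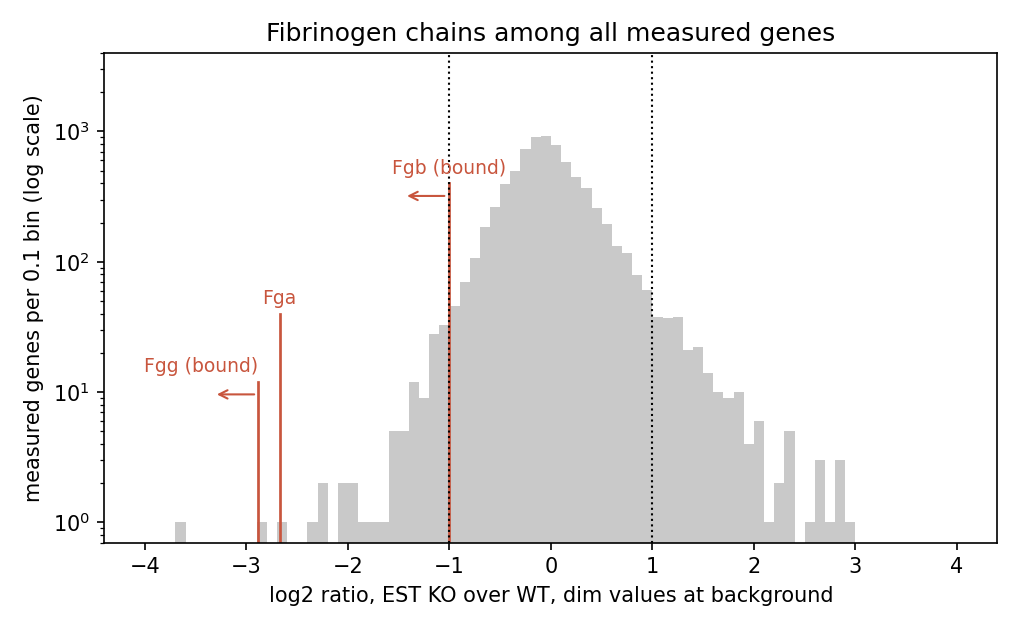
Number of measured genes (log axis) by log2 ratio of EST KO over WT in bins of 0.1, with readings below background held at it; dotted lines mark 2-fold. Fga stands at −2.67, and the bounds of Fgg at −2.88 and Fgb at −1.01 carry arrows towards lower ratios.

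The order of the 3 chains among themselves is not settled. Only Fga has a measured ratio, and the bounds of Fgg and Fgb each allow a ratio below that of Fga. The difference in signal can also be stated as EST KO minus WT intensity without a floor. It was −8152 for Fga, −4538 for Fgg and −1277 for Fgb. Those differences reflect each probe set's own brightness and do not rank the chains by amount of RNA.

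No chain had another probe set against which its ratio could be checked. In 1663 other genes the 2 brightest probe sets were both above background in both pools, and their log2 ratios differed by a median of 0.21, with a 95th percentile of 0.81, a 99th percentile of 1.20 and a largest difference of 2.18. These differences measure probe-set error within the pools and not the spread between mice. Among 26 of those genes that were at least 2-fold lower at the brightest probe set, 22 were lower at the next brightest as well, and 9 were at least 2-fold lower there too. RefSeq lists 2 transcripts each for Fga and Fgg and 1 for Fgb, and which transcripts the probe sets read was not tested here.

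Because the chains were low together, the 250 bases before each annotated start are shown, from RefSeq promoter sequences of build GRCm38.p6. Fga lies at chr3:83025903-83026152 on the plus strand, Fgb at chr3:83049864-83050113 on the minus strand and Fgg at chr3:83007474-83007723 on the plus strand. Each sequence runs 5′ to 3′ on the strand of its gene. Capitals mark CTGGGA, the core of the interleukin-6 response element of fibrinogen genes, and TTGCNNAA or its reverse complement, a core of C/EBP sites.
Fga: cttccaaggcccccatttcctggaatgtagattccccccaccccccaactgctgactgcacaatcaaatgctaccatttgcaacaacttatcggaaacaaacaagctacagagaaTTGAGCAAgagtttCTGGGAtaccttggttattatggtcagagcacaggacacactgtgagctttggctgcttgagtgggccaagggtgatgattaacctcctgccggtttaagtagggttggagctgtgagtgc
Fgb: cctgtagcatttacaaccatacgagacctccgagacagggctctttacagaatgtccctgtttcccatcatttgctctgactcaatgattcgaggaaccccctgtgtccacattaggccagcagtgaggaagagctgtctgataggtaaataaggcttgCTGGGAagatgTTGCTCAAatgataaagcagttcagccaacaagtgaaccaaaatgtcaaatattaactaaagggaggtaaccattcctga
Fgg: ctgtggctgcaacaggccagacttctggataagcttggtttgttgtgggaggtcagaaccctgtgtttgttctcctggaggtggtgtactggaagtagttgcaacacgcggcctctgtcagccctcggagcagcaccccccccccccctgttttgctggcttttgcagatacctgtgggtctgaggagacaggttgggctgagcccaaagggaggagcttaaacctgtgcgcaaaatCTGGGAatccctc

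The interleukin-6 core CTGGGA was found in all 3 promoters on the strand of the gene. Its first base lay 121 bases before the start of Fga, 91 before that of Fgb and 13 before that of Fgg. On either strand, CTGGGA occurs in 27.0% of 32841 RefSeq promoter windows of the same length, so its presence alone is common. The longer form CTGGGAA, which contains the core, was found for Fgb and Fgg and occurs in 9.10% of windows. The C/EBP core TTGCNNAA was found for Fga from 135 bases before the start, reading TTGAGCAA and so matching on the opposite strand, and for Fgb from 80 bases before it, as TTGCTCAA, and occurs in 9.57% of windows. CTGGGA and TTGCNNAA occur together in 2.38% of windows and did so for 2 of the 3 chains. No marked match overlapped another, apart from the core within its longer form. A match of letters does not show that a factor bound there.

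Few genes around the locus could be read. The 3 nearest annotated genes on either side and the noncoding gene lying among the chain genes were looked up, 4 of these 7 had a probe set, and 3 were measured. Plrg1, a splicing factor gene next to Fgb, read 850 and 797, a log2 ratio of −0.09. Its sign changed under median scaling. Rbm46os, a noncoding gene on the Fgg side, read 769.5 and 505.0, the latter below background, and was at least 1.21-fold lower. Gm10710 read 608.1, below background, and 724.8. Lrat, which esterifies retinol, was below background in both pools at 134.7 and 80.3. The WT readings of Plrg1, Rbm46os and Gm10710 were too near background, or below it, for a 2-fold lower ratio to be seen.

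Transcription factors known to act on fibrinogen promoters were read by their RNA only, and their activity was not tested. Of 6 measured factors on a list of 13, 5 were higher and 1 was lower in the EST KO pool, with a median log2 ratio of 0.50 against −0.05 for all measured genes. Of all measured genes whose direction could be told, 55.6% were lower. Hnf4a, a nuclear receptor of liver and proximal tubule, read 2271 and 6578 and was 2.90-fold higher. Its other 3 probe sets were higher too, with log2 ratios from 0.455 (707.4 and 969.7) to 2.23. The ratio was also 2.23 with single-transcript probe sets only, those whose identifier has no _s_at, _x_at or _a_at ending. Cebpb, a C/EBP member of the acute phase response, read 4847 and 6978 (1.44-fold higher). Nr3c1, the glucocorticoid receptor, read 880.5 and 1279 (1.45-fold higher). Cebpd, a C/EBP member induced by interleukin-6, was the exception at 3388 and 2197 (1.54-fold lower). Stat3, counted with interleukin-6 family signalling and not in this list, was lower too, at 4790 and 3818.

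Genes of interleukin-6 family signalling showed no common direction. Of 11 measured genes, 7 were higher and 4 lower (8 and 3 under median scaling, 6 and 5 with quantile normalization), none 2-fold apart, and the median was 0.01, whose sign changed when only single-transcript probe sets were used. The ligands Il6 (299.6 and 269.9), Osm, Lif and Il11 were all below background in both pools. Among receptors, Il6st, the shared signalling subunit gp130, read 1382 and 2495 (1.81-fold higher), and Lifr, the LIF receptor, read 697.4 and 1111 (1.59-fold higher). Osmr, the oncostatin M receptor, went the other way at 1904 and 1286 (1.48-fold lower). Stat3, the factor activated by these receptors, read 4790 and 3818 (1.25-fold lower). Socs3, a feedback inhibitor and target of STAT3, read 2944 and 3268 (1.11-fold higher).

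Acute phase genes that the liver raises together with fibrinogen were mostly below background. Of 22 on the array, 16 were below background in both pools, among them Saa1, Saa2, Hp, Hpx, Orm1 and Crp. This was common on the arrays, where 7480 of 18194 named genes were measured. All 6 measured genes were lower (5 under median scaling, with the 6th left without an order), none by 2-fold, with a median of −0.27. Of all measured genes whose direction could be told, 55.6% were lower. Cp, the copper carrier ceruloplasmin, was the furthest at 4367 and 2428 (1.80-fold lower). Its log2 ratio of −0.85 became −0.55 with the mean of its probe sets and −0.48 with single-transcript probe sets only. The metallothionein Mt2 read 27242 and 20257 (1.34-fold lower). Its relative Mt1 read 26771 and 20381 at its brightest probe set, and its log2 ratio was 0.05 with single-transcript probe sets only. Lbp, which binds lipopolysaccharide, read 704.9 and 560.6, the latter below background. The chains had lower ratios than any measured gene of this list, as measured or as bounds. They were chosen for their low ratios, so nothing is read from that difference.

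Endoplasmic reticulum genes that fold and export secreted proteins such as fibrinogen were not low as a group. Of 14 measured genes, 9 were higher, 4 lower and 1 without an order (12 higher and 2 lower under median scaling), and none was 2-fold apart. The median was 0.15, and under single-transcript probe sets it lay at −0.002. Hspa5, the chaperone BiP, read 4218 and 6974 (1.65-fold higher), but its next brightest probe set went the other way at 6500 and 4358, and the mean of its probe sets gave a log2 ratio of 0.41. Hsp90b1, the chaperone GRP94, read 2357 and 3976 (1.69-fold higher). Pdia6, a disulfide isomerase, and Sec61b, a subunit of the translocation channel, were lower, by at least 1.41-fold and by 1.40-fold.

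The clotting cascade that acts on fibrinogen was largely below background. Of 27 coagulation factors and inhibitors, 21 were below background in both pools, including F2, which encodes prothrombin (424.5 and 151.1), and F13a1, the A subunit of the factor that cross-links fibrin. Of all 18194 named genes, 7480 were measured. Of 6 measured genes, 2 were lower and 4 higher, with a median of 0.26 that turned to −0.09 with the 75th percentile background. Thbd, the endothelial thrombin receptor thrombomodulin, read 3094 and 1274 (2.43-fold lower; log2 −0.96 with a pseudocount of 657.2 added to each value in place of the floor). Proc, the anticoagulant protein C that thrombomodulin helps to activate, read 854.2 and 1928 (2.26-fold higher; log2 0.77 with a pseudocount). F13b, the carrier subunit of that cross-linking factor, read 1016 and 1718 (1.69-fold higher). Kng1, kininogen, read 1501 and 1061 (1.41-fold lower). F3, tissue factor, which starts the cascade, read 1120 and 1401 (1.25-fold higher).

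Genes that remove fibrin or restrain its removal were lower in 6 of 7 measured cases, against 55.6% of all measured genes whose direction could be told. With the mean of probe sets, 5 were lower and 2 higher. The list median was −0.38. The 1 exception was Serpinf2, the antiplasmin that blocks plasmin, which read 1460 and 3879 and was 2.66-fold higher. Plat, tissue plasminogen activator, read 4432 and 2869 (1.54-fold lower). Anxa2, a cell-surface site for plasmin formation, read 11518 and 7351 (1.57-fold lower). Thbs1, thrombospondin, read 1784 and 1252 (1.42-fold lower). Plg, which encodes plasminogen, and Plau, urokinase, were below background in both pools.

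Receptors for fibrin, fibrinogen and thrombin were lower in 5 of 6 measured cases (4 under median scaling), with a median of −0.21. The share of lower genes among all measured genes whose direction could be told was 55.6%. F2r, the thrombin receptor PAR1, read 7026 and 3462 (2.03-fold lower) at its brightest probe set. With the mean of its probe sets its log2 ratio was −0.72, and it also came under 2-fold with a pseudocount and under median scaling. Itgb1, an integrin subunit, read 6660 and 4513 (1.48-fold lower), although another probe set was at 0.14. F2rl2, the thrombin receptor PAR3, read 1481 and 1220 (1.21-fold lower). Icam1, which binds fibrinogen and leukocytes, read 518.9, below background, and 1108 (at least 1.64-fold higher). Itga2b and Itgb3, the platelet fibrinogen receptor, and Itgam and Itgb2, the leukocyte one, were below background in both pools.

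Other genes whose proteins carry a fibrinogen-like domain did not follow the chains. Of 7 measured on a list of 19, 4 were lower and 3 higher (2 and 5 under median scaling), with a median of −0.01 that turned positive under that scaling. Tnc, the matrix protein tenascin C, was 2-fold apart, at 2111 and 565.5 (at least 3.31-fold lower). Fgl2, a prothrombinase, read 725.8 and 257.7 (at least 1.14-fold lower), and its WT reading was too near background to show a larger fold. Its log2 ratio was −1.16 with the 75th percentile background and −1.49 with no floor, both past 2-fold. Angptl7 read 628.4, below background, and 1052 (at least 1.56-fold higher). Angptl6 read 731.5 and 911.0 (1.25-fold higher). Fgl1, a liver-made relative, was below background in both pools at 64.1 and 57.5.

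**Figure D3:**
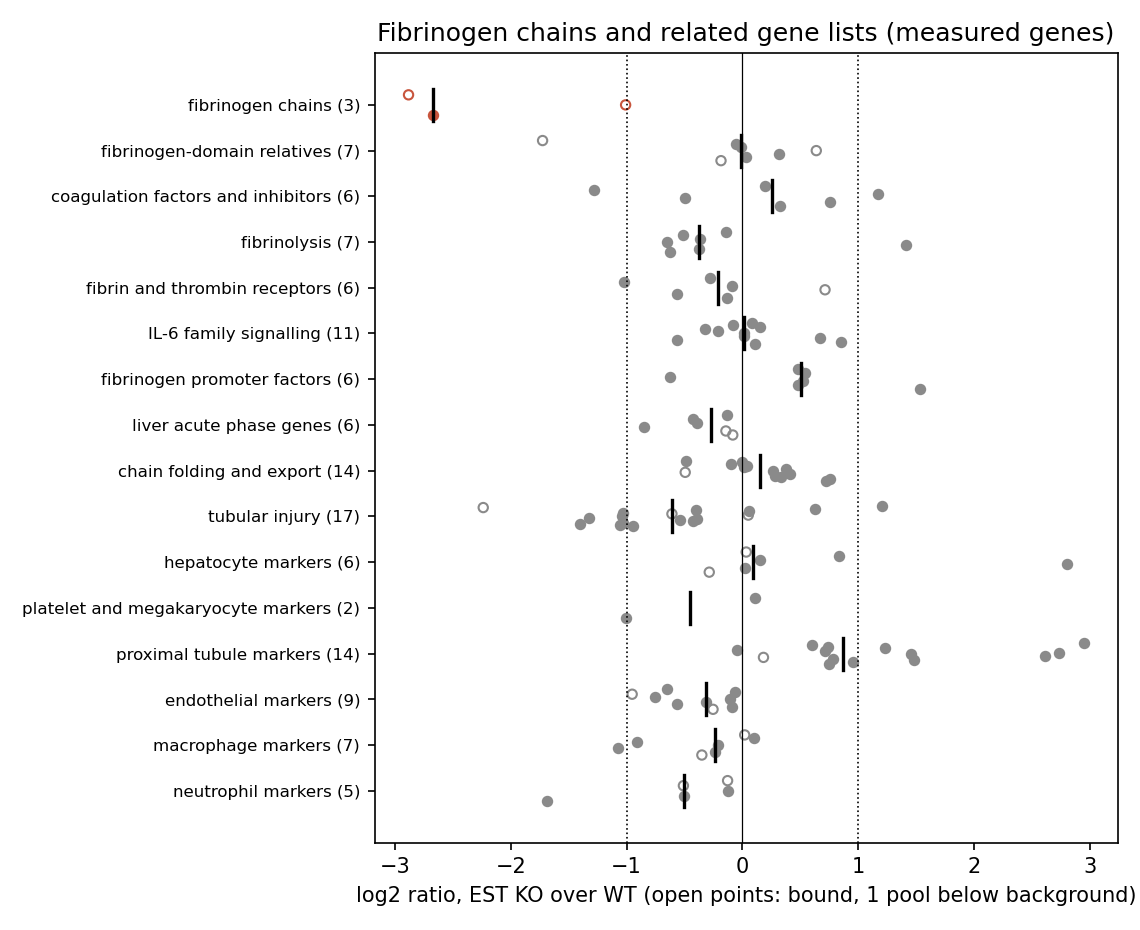
Log2 ratio of EST KO over WT for each measured gene of each list, with the number measured in brackets, the list median as a black bar, 2-fold as dotted lines and bounds as open points; 1 folding gene without an order is not drawn. The chains, chosen for their low ratios, have a median of −2.67, so their place left of the other list medians is no test. The lowest of the other medians is tubular injury at −0.61.

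The tissue and the other cell types that could carry chain transcripts were read by their markers. All 14 proximal tubule markers on the array were measured, and their summed intensities were 63710 for WT and 128197 for EST KO. Of these, 6 were at least 2-fold higher in the EST KO pool (7 under median scaling), led by the scaffold gene Pdzk1 (1070 and 8243) and the transporter genes Slc13a3 (726.4 and 4822) and Slc22a6 (1622 and 9904). Over all measured genes, 3.02% were at least 2-fold higher. Of 18 hepatocyte markers, 6 were measured, with summed intensities of 16213 and 35465, most of it from Cyp2e1 (11569 and 20655) and Ttr (1716 and 11957), while Apob read 778.6 and 475.1. The other 12, including Alb (487.9 and 522.3), Apoa1, Ahsg and Fabp1, were below background in both pools. For comparison, 7480 of all 18194 named genes were measured. The part of hepatocyte RNA in the chain readings was not tested. Of 11 platelet and megakaryocyte markers, 2 were measured, with sums of 2433 and 1701. Pf4, platelet factor 4, read 1586 and 788.5 (2.01-fold lower, and under 2-fold with a pseudocount, median scaling or quantile normalization), and Treml1 read 846.8 and 912.0. The platelet markers Ppbp, Gp9, Itga2b and Itgb3 were below background in both pools. The part of platelets in the chain readings was not tested.

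Markers of tubular injury, endothelium and leukocytes were mostly lower in the EST KO pool as well. For comparison, 55.6% of all measured genes whose direction could be told were lower there. Of 17 measured injury genes, 13 were lower, 7 of them at least 2-fold (3 under median scaling), and 4 were higher, with a median of −0.61 and sums of 130256 and 84336. Over all measured genes, 1.40% were at least 2-fold lower and 3.02% at least 2-fold higher. Krt20, a keratin of damaged tubules, read 15736 and 5937 (2.65-fold lower), and Cryab, a small heat shock protein, read 4679 and 1867 (2.51-fold lower). Sprr2f, a small proline-rich protein with close relatives in the genome, read 3011 and 376.4 (at least 4.72-fold lower). Lcn2, Krt18, Vim and Timp1 were close to 2-fold, from 2.04-fold to 2.08-fold lower, and each came under 2-fold with median scaling. Hbegf, an EGF receptor ligand, was 2.30-fold higher at 2326 and 5349, and its log2 ratio was 0.98 with the mean of its probe sets. All 9 measured endothelial markers were lower (6 under median scaling; median −0.32, sums 13270 and 9890), as were all 5 neutrophil markers (median −0.51, sums 5894 and 3513) and 5 of 7 macrophage markers (median −0.23, sums 13000 and 9160). Among these, S100a8 (2093 and 649.3) and Cd14, a macrophage co-receptor for lipopolysaccharide (5159 and 2444), were 3.22-fold and 2.11-fold lower, Cd14 under 2-fold with median scaling or a pseudocount, and Nos3, endothelial nitric oxide synthase (1235 and 589.2), was at least 1.93-fold lower. The part of injury extent and cell makeup in the chain readings was not tested.

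Genes with ratios most like those of Fga and Fgg were looked up; the bound of Fgb lies among many genes near 2-fold. Likeness was taken as the absolute difference in log2 ratio over the 2 arrays. Among genes above background in both pools, the 5 nearest to Fga were Snrnp27 (−2.00), Srxn1 (−1.97), Cdo1 (−1.84), S100a8 (−1.69) and Selenow (−1.59), at distances of 0.67 to 1.08. Snrnp27 read 4206 and 1052 at its brightest probe set and 681.8 and 773.0 at another, so its probe sets were opposed. Srxn1, which repairs oxidised peroxiredoxins, read 16510 and 4207, and its log2 ratio was −1.20 with the mean of its probe sets and −1.29 with single-transcript probe sets only. For S100a8, a calprotectin subunit of neutrophils, it was −1.07 with a pseudocount. For Selenow, the ratio was −0.77 with single-transcript probe sets only. Among all measured genes, the nearest to the bound of Fgg was Fga, at a distance of 0.21. The next were Kctd1 (at least 5.08-fold lower), Sprr2f, Arg2, an arginase of mitochondria (at least 4.61-fold lower), and Ugt2b38, a glucuronosyltransferase (at least 12.2-fold lower). Kctd1 was at −1.57 with single-transcript probe sets only, and Arg2 at −1.26 with the mean of its probe sets and −1.49 with a pseudocount. The other probe set of Arg2 was lower too, at 794.6 and 110.7, with a WT reading too near background for a large fold. Of these genes, only Ugt2b38 had a lower floored ratio than Fgg.

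The ratios of Fga and Fgg stayed past 2-fold under all 7 alternative settings, and that of Fgb did not. Not all settings could move a chain. Each chain had a single probe set, without an _s_at, _x_at or _a_at ending. The mean of probe sets and single-transcript probe sets only therefore had to return the reported values. Fga was above background in both pools, so the 75th percentile background and no floor could not change it either. The log2 ratio of Fga ran from −2.77 with quantile normalization to −2.25 with a pseudocount. That of Fgg ran from −4.79 with no floor to −2.70 with a pseudocount. The bound of Fgb was −0.90 under median scaling and −0.96 with quantile normalization, both under 2-fold, −1.98 with background at the 75th percentile, and −7.42 with no floor. Median scaling moved the median of all measured genes by 0.11, and the Fgb bound moved by the same amount.

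**Figure D4:**
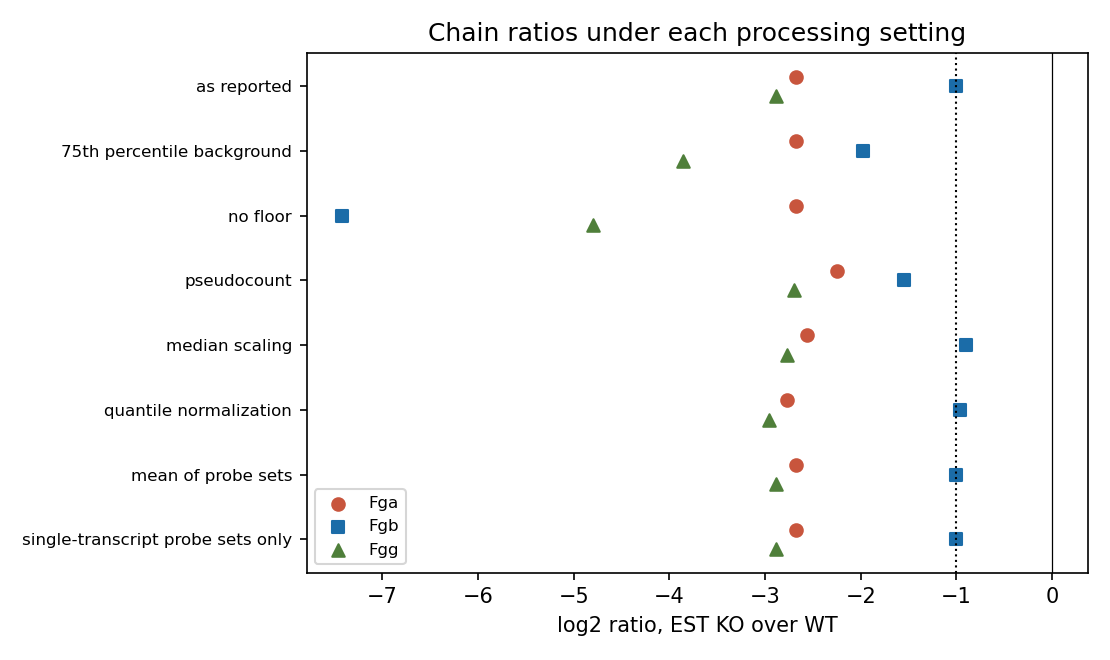
Log2 ratio of EST KO over WT for Fga (circles), Fgb (squares) and Fgg (triangles) as reported and under 7 alternative settings, with 2-fold as a dotted line. All points lie below 0, and Fgb lies between 0 and the dotted line under median scaling (−0.90) and quantile normalization (−0.96); its point at −7.42 and that of Fgg at −4.79 rest on readings below background.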

How the data were processed

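Gene expression was measured on 1 Affymetrix array per pool, from 8 µg of total RNA extracted with Trizol and made into biotinylated cRNA, per the labels' protocols. The values are intensity values deposited by the authors, 1 per probe set, on a linear scale. From the values, each array had been scaled to a mean of 500.0 after the lowest and highest 2% were dropped; neither scanner software nor summary method is given in the sources used here. No further scaling was applied.

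Of 45101 probe sets, 34958 had 1 gene symbol in GEO's platform annotation, 932 had several and 9211 none; symbols were updated by Entrez ID through a RefSeq table of GRCm38.p6 (34754 matched). For each gene the probe set brightest on average over both arrays was used. Background was set per array, at 676.1 and 638.3, and 24.0% and 24.2% of probe sets lay above it. The ratio of 3′ to 5′ control probe sets was 1.35 and 1.28 for actin and 0.88 and 0.84 for GAPDH.

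Sizes only are given, with 2-fold as the threshold. The chains and the 16 lists (255 entries, 236 on the array) were chosen with earlier results of these data known. Open to naming were every chain probe set, up to 4 measured genes of each list with the largest ratio plus those past 2-fold, the 5 genes nearest to Fga and to Fgg, and the 3 neighbours on each side. Other genes, such as F3, Socs3, Alb and those below background, were named after their values were seen. Alternatives were a 75th percentile background, no floor, a pseudocount of 657.2, median scaling, quantile normalization, the mean of probe sets above background, and probe sets without _s_at, _x_at or _a_at endings. Code was tested on simulated data. Python 3.11.15, NumPy 2.4.6 and pandas 2.3.3 were used.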

Additional observations from a re-analysis of the deposited data

How the results depend on the processing

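The direction of all 3 chains held under all 7 alternatives, although the settings on probe sets could not change a chain with a single probe set. A value was counted as moved when it shifted by more than 0.28, the SD of a single probe set's log2 ratio. By that measure Fga moved with a pseudocount (−2.25), Fgb with the 75th percentile background (−1.98), no floor (−7.42) and a pseudocount (−1.55), and Fgg with the 75th percentile background (−3.85) and no floor (−4.79). The ratios of Fgb and Fgg without a floor rest on readings below background, which have no order. The count of genes at least 2-fold lower, 105, became 204 with the 75th percentile background, 197 with no floor and 39 with a pseudocount, and the count of genes at least 2-fold higher, 226, became 133 with a pseudocount. Genes higher made up 68.3% of those 2-fold apart, and 81.1% (301 higher, 70 lower) under median scaling. Across all lists, 27 entries were 2-fold apart, and 19 to 33 under the alternatives. Of the values for other genes and for the list medians, that of the chains included, 559 shifted by less than 0.28 under the alternatives and 59 by more. Many of the 559 could not shift. A gene above background in both pools is unchanged by a lower background or no floor. The settings on probe sets leave a gene with a single plain probe set as it was. Median scaling moved the median of all measured genes by only 0.11. These counts therefore do not measure stability. No paired analysis was possible because each group is 1 pool on 1 array. For the same reason no replicate could be left out. The limit on Fgb is its signal over background, 1.90-fold in the WT pool.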

Other observations

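The EST KO reading of Fgb was 7.5. Of all probe sets on that array, 2.90% (1306 of 45101) read at or below it, as did 2.59% on the WT array. Among the 6822 genes above background in the WT pool, 707 fell short of the EST KO background, and Fgb was the only 1 that read 7.5 or less there. At or below the EST KO reading of Fgg, 169.6, lay 13 of the 6822 genes, both chains included. Of the 129 silent probe sets on that array, 66 read higher than Fgg. The cuts are the chains' own readings, and the chains were chosen for their low EST KO intensity, so these counts test nothing. These readings were looked up after the chain values were seen, and readings below background have no order, so they describe 1 array.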
